A study of Odorrana tormota with 4 samples.

Results

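The 10 genes described here were 9 genes of the cell cycle (*PCNA*, *MCM2*, *MCM3*, *MCM5*, *MCM6*, *TOP2A*, *CDK1*, *CCNB1* and *MKI67*) and *DCX*, a gene of newborn neurons. Their unigenes, the assembled transcripts of a species without a reference genome, were found by the gene symbol of the Swiss-Prot match, in any case and with a final -a or -b dropped, and those whose best match in the NR protein database was *Gallus* or *Meleagris* were left out. This gave 21 of the 197684 unigenes in the table, for 10 of its 16911 gene symbols. FPKM (fragments per unigene length and sequencing depth) was summed over the unigenes of each gene. *O. tormota*, the concave-eared torrent frog, is a species whose calls and hearing reach high frequencies, and the brain transcriptomes were compared between the sexes with hearing in view. Brain tissue of 12 adult frogs was sequenced as polyadenylated RNA in 4 pools: M1 and M2 from 4 males each, and F1 and F2 from 2 females each. RNA was taken from each frog and mixed in equal amounts, so that a group had 2 pools and the spread within a sex was a spread between pools. Sex and the number of frogs in a pool went together, and their effects cannot be told apart. In RNA of brain tissue, fewer cells of a type and less RNA per cell cannot be told apart either.

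In amphibians, cells that line the ventricles go on dividing in the adult brain, and some of their daughters become neurons. A dividing cell loads the MCM helicase onto DNA, copies DNA with the help of the sliding clamp PCNA, untangles it with topoisomerase II alpha and enters mitosis when cyclin B1 activates CDK1, while Ki-67, the product of *MKI67*, coats the mitotic chromosomes. Doublecortin, the product of *DCX*, binds microtubules in young neurons that have left the cycle and migrate or grow processes. PCNA also serves DNA repair, so that its RNA is not limited to dividing cells.

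The unigenes gathered by these symbols differed in the species of their best NR match. Of the 21 unigenes, 11 had an amphibian match (called frog-matched below), and all 11 were above 0 in all 4 pools. The other 10 matched a bird other than those left out (7) or a fish (3), and 9 of these 10 were listed at 0 in both female pools. The exception was a 2273 bp unigene named *MKI67* with a sea bass match. All 6 unigenes left out for *Gallus* or *Meleagris* were listed at 0 in both female pools too. Over the whole table, 59.4% of the remaining bird-matched unigenes were listed at 0 in both female pools, against 5.97% of the amphibian-matched ones. *MCM3* and *MCM6* had no frog-matched unigene under these symbols, because the *Xenopus* proteins carry the names mmcm3, zmcm3, mmcm6 and zmcm6. Frog-matched values are therefore given beside those of the symbol rule, and they include 4 unigenes of the *Xenopus* names for *MCM3* and 5 for *MCM6*, a choice made after seeing the data.

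**Figure D1:**
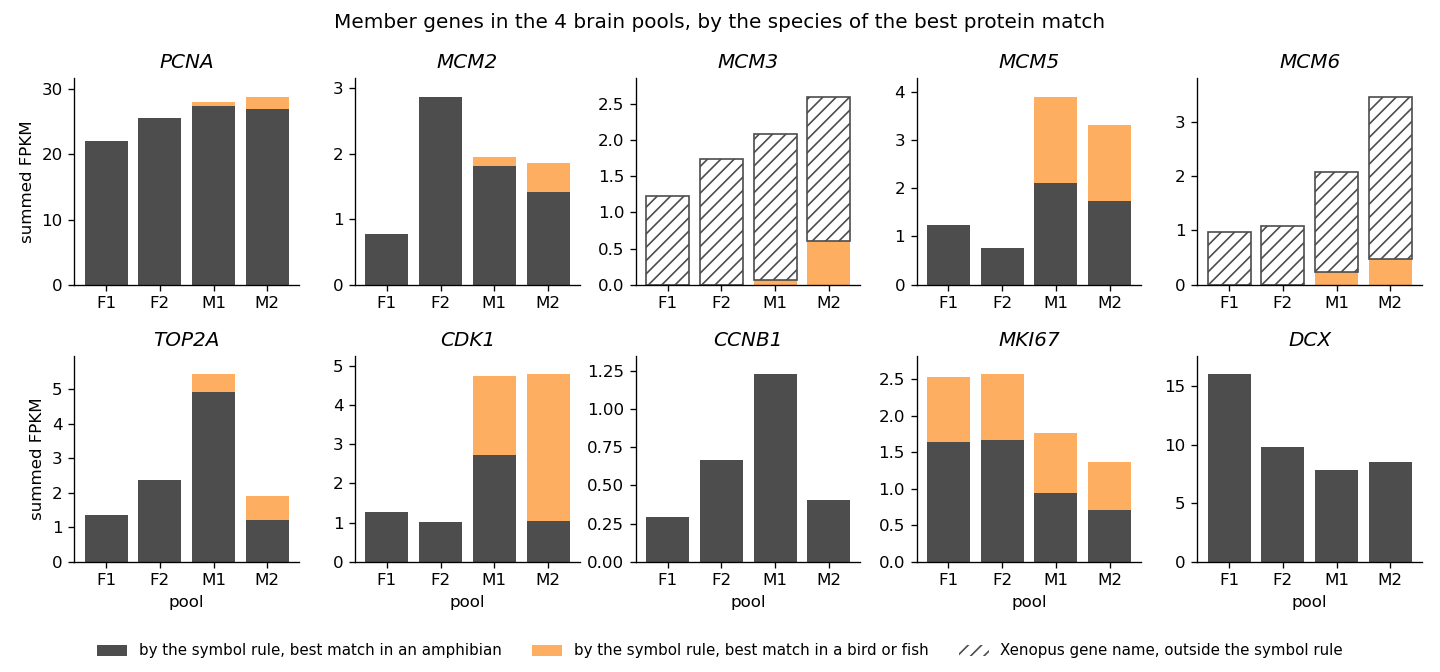
Summed FPKM of each of the 10 genes (vertical axis, starting at 0, with its own scale per gene) in the pools F1, F2, M1 and M2 (horizontal axis). Dark bars are unigenes of the symbol rule with an amphibian match, orange bars those with a bird or fish match, and hatched bars the *Xenopus*-named unigenes; the orange part of *CDK1* reached 3.75 FPKM in M2 and was 0 in both female pools.

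None of the 10 genes passed the test between the sexes. log2(FPKM + 0.5) was fitted with limma over 48997 features (symbols, and unigenes without a symbol) that had at least 1 FPKM in at least 2 pools, and 0 of them (0.0%) had a Benjamini-Hochberg adjusted p under 0.05. Of the 10 genes, 7 entered this fit, while *MCM3*, *MCM6* and *CCNB1* were too low. An unadjusted p under 0.05 was found for 2 genes, *CDK1* and *MCM5*, both higher in males, against 11.0% of all features (6.92% toward males, 4.06% toward females). With frog-matched unigenes alone, 9 of the 10 genes entered a fit of 11440 features, 0 were called, and *MCM6* alone had an unadjusted p under 0.05 (9.03% of those features). Counted over all 10 genes without a filter, M1 and M2 both lay above F1 and F2 in 5 genes by the symbol rule (26.5% of all symbols) and in 4 genes by frog matches (17.2%). The 5 genes were *PCNA*, *MCM3*, *MCM5*, *MCM6* and *CDK1*. All 5 held bird- or fish-matched unigenes listed at 0 in both female pools, and *MCM3* and *MCM6* held no others. By frog matches *CDK1* overlapped between the sexes, and *MCM3* and *MCM6* were sums over the *Xenopus* names. Both female pools lay above both male pools in 2 genes, *MKI67* and *DCX*, under either choice (20.7% of all symbols, and 24.3% of frog-matched symbols). No exact permutation test was used, since 2 pools in each sex allow no p smaller than 0.333.

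*DCX* was measured on 1 unigene of 3518 bp that matched *X. tropicalis*. Its level was 16.0 (F1), 9.77 (F2), 7.83 (M1) and 8.502 FPKM (M2). Both female pools lay above both male pools, but F2 lay closer to the males than to F1. The difference between the sexes was 0.59 on the log2 scale (SE 0.28, limma, Benjamini-Hochberg adjusted p = 0.534), and the female mean was 1.58 times the male mean. Without F1 the difference was 0.25, and without F2 it was 0.93. F1 was also the pool with the highest sum of mature neuron genes. The 13 frog-matched genes of the mature neuron list were all higher in F1 than in F2 (45.0% of frog-matched symbols). F1 was the highest of the 4 pools in 7 of them (28.0%). The list summed to 2672 (F1), 2046 (F2), 2315 (M1) and 2407 FPKM (M2). Per 1000 FPKM of this sum, *DCX* had 5.99 (F1), 4.77 (F2), 3.38 (M1) and 3.53 FPKM (M2). The female pools were above the male pools on this scale too, and the gap between F1 and F2 was smaller. This ratio has no test, and the part of neuron content in the *DCX* level was not tested.

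*MKI67* was the only cell cycle gene of the 9 with both female pools above both male pools. By the symbol rule its sum was 2.52 (F1), 2.57 (F2), 1.76 (M1) and 1.36 FPKM (M2). The female pools were close to each other, and no male pool reached them. The difference was 0.57 on the log2 scale (SE 0.26, limma, Benjamini-Hochberg adjusted p = 0.532). The frog-matched unigene, 5560 bp long, was measured at 1.64 (F1), 1.66 (F2), 0.946 (M1) and 0.706 FPKM (M2). It carried a difference of 0.70 (SE 0.27, adjusted p = 0.545 in the frog-matched limma fit). Both male pools were under 1 FPKM, so it passed the filter of that fit through the females alone. The sea bass-matched unigene varied less, with 0.882 (F1), 0.906 (F2), 0.819 (M1) and 0.658 FPKM (M2). Leaving out any 1 pool kept the frog-matched difference between 0.57 and 0.83.

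**Figure D2:**
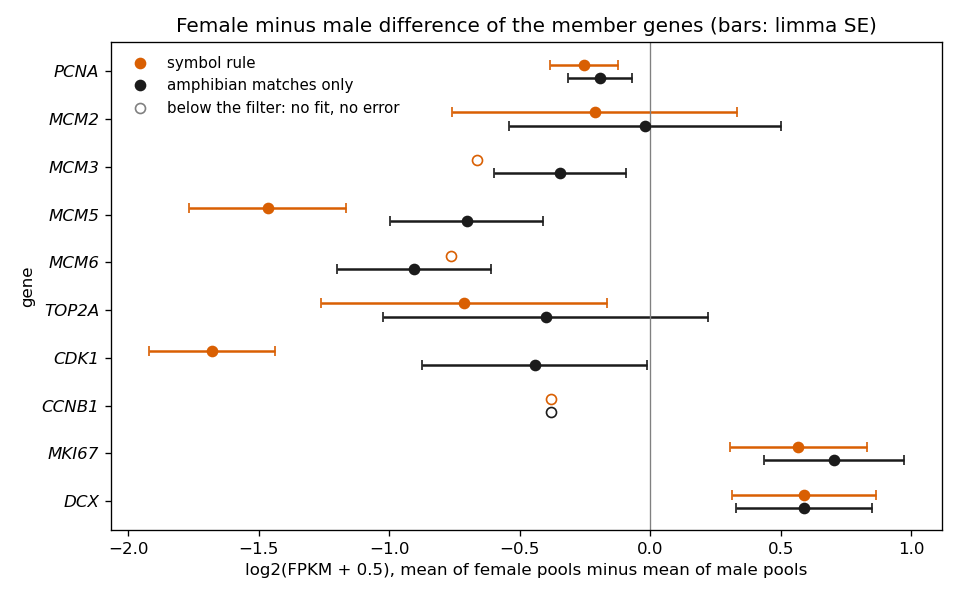
Female minus male difference in log2(FPKM + 0.5) (horizontal axis) of each gene (vertical axis), by the symbol rule (orange) and from frog-matched unigenes (black). Bars are the SE of limma, and open points are genes below the filter; *CDK1* moved from -1.68 to -0.44 between the choices, whereas *DCX* was at 0.59 in both.

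*PCNA*, the sliding clamp of DNA polymerase, was the most abundant of the 10 genes in every pool. Its sum was 22.0 (F1), 25.6 (F2), 28.0 (M1) and 28.8 FPKM (M2). Each male pool was above each female pool by a small margin. The difference was -0.25 on the log2 scale (SE 0.13, limma, Benjamini-Hochberg adjusted p = 0.570) and was -0.15 without F1. Most of the level came from a 1312 bp frog-matched unigene at 21.7, 25.4, 27.2 and 26.6 FPKM in F1, F2, M1 and M2. A 315 bp unigene with a finch match in NR and an *Arabidopsis* match in Swiss-Prot added 0.605 FPKM in M1 and 1.78 in M2, and was listed at 0 in both female pools. A second frog-matched unigene of 707 bp stayed between 0.180 and 0.460 FPKM in the 4 pools. With frog matches alone M1 and M2 were at 27.4 and 27.0 FPKM, and the difference was -0.19 (SE 0.12).

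The MCM helicase genes, which encode subunits of 1 ring, did not all share 1 order of the pools. *MCM2* was at 0.777 (F1), 2.86 (F2), 1.95 (M1) and 1.85 FPKM (M2). The female pools lay on either side of the males, and the difference of -0.21 (SE 0.55, limma, Benjamini-Hochberg adjusted p = 0.931) turned to 0.48 without F1. Its frog-matched unigene, 2898 bp long, was at 0.777 (F1), 2.86 (F2), 1.81 (M1) and 1.42 FPKM (M2), and a 488 bp unigene with a salmon match made up the rest in males. *MCM5* was at 1.24 (F1), 0.765 (F2), 3.89 (M1) and 3.32 FPKM (M2). The male pools were well above the female pools, with a difference of -1.47 (SE 0.30, unadjusted p = 0.00719, adjusted p = 0.229, limma). Of these levels, 2 bird-matched unigenes of 333 bp and 500 bp gave 1.27 and 0.504 FPKM in M1, gave 1.22 and 0.366 in M2, and were listed at 0 in both female pools. The 2 frog-matched unigenes of *MCM5* summed to 1.24 (F1), 0.765 (F2), 2.11 (M1) and 1.73 FPKM (M2). The males were still above the females, but the difference was -0.70 (SE 0.29, limma, Benjamini-Hochberg adjusted p = 0.545).

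*MCM3* and *MCM6* under their plain symbols were 1 short unigene each, and each was listed at 0 in both female pools. *MCM3* was a 666 bp unigene with a herring match in NR and an *Arabidopsis* match in Swiss-Prot, listed at 0 in F1 and F2, at 0.0677 FPKM in M1 and at 0.608 in M2. *MCM6* was a 362 bp unigene with a tinamou match, listed at 0 in F1 and F2, at 0.237 FPKM in M1 and at 0.479 in M2. The values in M1 were below the 5th percentile of the values above 0 at those lengths, 0.101 FPKM for *MCM3* and 0.279 for *MCM6*. Under the *Xenopus* names both genes were found in all 4 pools. *MCM3* was then at 1.23 (F1), 1.75 (F2), 2.02 (M1) and 1.99 FPKM (M2), a difference of -0.35 (SE 0.25, limma, Benjamini-Hochberg adjusted p = 0.678) that was -0.16 without F1. *MCM6* was at 0.970 (F1), 1.08 (F2), 1.84 (M1) and 2.98 FPKM (M2), a difference of -0.91 (SE 0.30, unadjusted p = 0.0318, adjusted p = 0.538, limma). As sums, both genes were higher in both male pools, *MCM3* by a narrow margin. These sums joined unigenes of the mmcm and zmcm names, which were not fitted apart. The longest *MCM3* unigene, zmcm3 with 3121 bp, was at 0.527 (F1), 0.908 (F2), 1.40 (M1) and 0.862 FPKM (M2). On that unigene the sexes overlapped. In M2 a 319 bp unigene listed at 0 in the other 3 pools gave 1.43 of the 2.98 FPKM of *MCM6*. The longest *MCM6* unigene, zmcm6-b with 2999 bp, was at 0.482 (F1), 0.369 (F2), 1.15 (M1) and 0.641 FPKM (M2).

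*CDK1*, the kinase that drives entry into mitosis, changed most with the species of the match. By the symbol rule it was at 1.28 (F1), 1.02 (F2), 4.74 (M1) and 4.79 FPKM (M2). The male pools were close to each other and far above the females, with a difference of -1.68 (SE 0.24, unadjusted p = 0.00188, adjusted p = 0.222, limma). Its female to male ratio of 0.241 was the lowest among the 7 genes tested. A frog-matched unigene of 1274 bp held the whole female level and was at 1.28 (F1), 1.02 (F2), 2.73 (M1) and 1.04 FPKM (M2). M2 lay between the 2 female pools, so the sexes overlapped. A 413 bp unigene with a tropicbird match gave 0.763 FPKM in M1 and 1.29 in M2. A 382 bp unigene with a woodpecker match gave 1.24 FPKM in M1 and 2.45 in M2. Both were listed at 0 in F1 and F2. The frog-matched difference was -0.44 (SE 0.43, limma, Benjamini-Hochberg adjusted p = 0.753), and without M1 it was 0.09.

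*CCNB1*, which encodes the cyclin that activates CDK1, rested on a frog-matched unigene of 1327 bp with a *Rana dybowskii* match. It was at 0.290 (F1), 0.663 (F2), 1.23 (M1) and 0.403 FPKM (M2). M1 was the highest pool, and M2 lay between the females. The gene was below the filter, and limma without a filter gave a difference of -0.38 (SE 0.47, Benjamini-Hochberg adjusted p = 0.774). Without M1 the difference was 0.09. *TOP2A*, the DNA topoisomerase of chromosome condensation and separation, was at 1.35 (F1), 2.38 (F2), 5.44 (M1) and 1.91 FPKM (M2). M1 stood above the other pools, and the rest overlapped. The difference was -0.71 (SE 0.55, limma, Benjamini-Hochberg adjusted p = 0.709), with -0.06 without M1 and -1.36 without M2. The 2 frog-matched *TOP2A* unigenes, 4662 bp and 1107 bp long, had the same order of pools as each other, with M2 lowest. In the sum of the symbol rule F1 was lowest instead. The longer one was at 0.624 (F1), 0.908 (F2), 2.22 (M1) and 0.574 FPKM (M2). The shorter one was at 0.725 (F1), 1.47 (F2), 2.71 (M1) and 0.640 FPKM (M2). M1 was highest on both, while F2 came second on both. Their summed difference of -0.40 (SE 0.62) turned to 0.43 without M1. A 748 bp unigene with a bird match, listed at 0 in females, added 0.512 FPKM in M1 and 0.6997 in M2.

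The summed level of the 9 cell cycle genes was 29.5 (F1), 35.8 (F2), 47.4 (M1) and 43.5 FPKM (M2). Both male pools were above both female pools, by 0.48 on the log2 scale, with a spread of 0.15 (SD within a sex). *PCNA* made up 74.7% (F1), 71.4% (F2), 59.2% (M1) and 66.2% (M2) of this sum. From frog-matched unigenes the sum was 30.8 (F1), 37.8 (F2), 45.1 (M1) and 38.5 FPKM (M2). M2 lay only just above F2, and the difference was -0.28, with -0.14 without F1 and -0.17 without M1. Without *PCNA* the frog-matched sum was 8.77 (F1), 12.2 (F2), 17.6 (M1) and 11.5 FPKM (M2), so that F2 was above M2. Without *PCNA* the sum of the symbol rule was 7.45 (F1), 10.3 (F2), 19.3 (M1) and 14.7 FPKM (M2), and there the sexes did not overlap.

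*DCX* was set beside the cell cycle genes as a ratio. The ratio of *DCX* to the frog-matched cell cycle sum was 0.520 (F1), 0.259 (F2), 0.174 (M1) and 0.221 (M2). F1, the pool with the highest *DCX*, had the lowest cell cycle sum, and M1, with the lowest *DCX*, had the highest one, a sum that is mostly *PCNA*. The ratio of *MKI67* to *CDK1* from frog matches was 1.28 (F1), 1.63 (F2), 0.346 (M1) and 0.675 (M2). Both ratios were higher in both female pools, and neither has a test. For *DCX* this order follows from the orders of *DCX* and of the sum, so it is no further result. *MKI67* already had both female pools above both male pools before it was divided. With 4 pools, no correlation was computed.

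Genes that work beside the members were read from lists that had been put together with earlier results of these data known. Of the mitosis and chromosome segregation list, which holds no member, 44 of 47 genes were in the table, 30 passed the filter and 0 were called, with an unadjusted p under 0.05 for 8 genes toward males (6.92% of all features) and 0 toward females (4.06%). Of these 8 genes, 5 were under 1 FPKM in both female pools and so passed the filter through the males alone. In the frog-matched fit 24 genes were tested, 0 were called, and 4 had an unadjusted p under 0.05 toward males (3.63% of those features), 3 of them under 1 FPKM in both female pools. From frog-matched unigenes, 42 genes of it were above 0, with both male pools above both female pools in 21 genes (17.2% of frog-matched symbols) and the reverse in 2 genes (24.3%). The median female minus male difference of these 42 genes was -0.40, against 0.04 over all frog-matched symbols. Counted without M1, M2 lay above both female pools in 21 genes (27.6% of frog-matched symbols). Counted without M2, M1 did so in 34 genes (30.3%). The 4 genes of this list with the highest mean levels were *WEE1*, *ANLN*, *SMC4* and *NCAPD2*. *WEE1*, an inhibitor of CDK1, was at 3.96 (F1), 4.59 (F2), 4.16 (M1) and 3.69 FPKM (M2). *SMC4*, a condensin subunit, was at 3.04 (F1), 3.98 (F2), 3.84 (M1) and 2.75 FPKM (M2). *NCAPD2*, another condensin subunit, was at 3.02 (F1), 3.19 (F2), 3.04 (M1) and 2.62 FPKM (M2). In these 3 genes the sexes overlapped. *ANLN*, the anillin of the cleavage furrow, was at 2.66 (F1), 2.74 (F2), 4.73 (M1) and 4.12 FPKM (M2) on frog-matched unigenes, with both male pools above (difference -0.62, SE 0.18, limma, Benjamini-Hochberg adjusted p = 0.528).

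Within the males, the mitosis genes were higher in M1 than in M2. From frog-matched unigenes M1 was above M2 in 39 of 42 genes (53.4% of frog-matched symbols) and was the highest of the 4 pools in 31 of them (21.1%). The median difference between M1 and M2 was 0.36 on the log2 scale, against 0.02 over all frog-matched symbols. The 3 exceptions, named after their values were seen, were *AURKA*, *ASPM* and *INCENP*, the last with equal levels of 2.82 FPKM in M1 and 2.83 in M2. The list summed to 41.5 (F1), 47.5 (F2), 74.9 (M1) and 52.7 FPKM (M2). Neither median-ratio scaling nor scaling to the amphibian-matched total changed the count of 39. Of the 9 cell cycle members, M1 was above M2 in 8 from frog-matched unigenes, *MCM6* being the exception. Under either scaling this held in 6, because *PCNA* and *MCM3* differed by under 0.03 between M1 and M2 on the log2 scale. Over all frog-matched symbols M1 was above M2 in 45.1% with median-ratio scaling and in 46.9% with the other scaling. The largest frog-matched gaps were those of *TOP2A* (1.66), *CDK1* (1.07) and *CCNB1* (0.94). By the symbol rule M1 was above M2 in 5 of the 9 members (46.4% of all symbols), and the gap of *CDK1* was -0.01. M1 and M2 are 1 pool each, so no test of this difference was made.

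**Figure D3:**
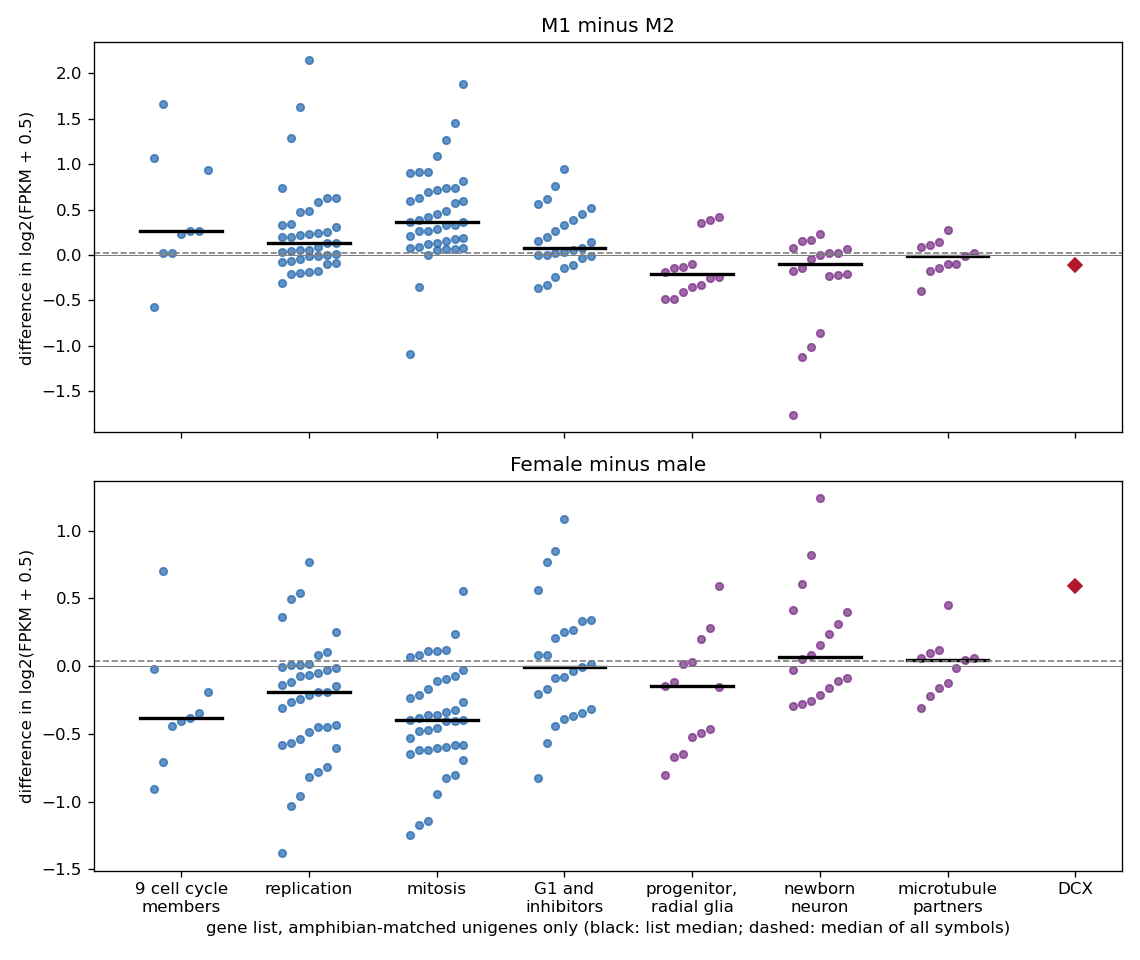
Difference in log2(FPKM + 0.5) between M1 and M2 (upper panel) and between the female and male means (lower panel) for each gene (1 point) of the lists on the horizontal axis, from frog-matched unigenes. Black lines are list medians and the dashed line is the median of all frog-matched symbols; the mitosis list sat at a median of 0.36 in the upper panel and -0.40 in the lower one.

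The replication list covers origin, fork and nucleotide synthesis. From frog-matched unigenes 39 genes were above 0, the males were above the females in 15 (17.2% of frog-matched symbols) and the females above the males in 5 (24.3%), with a median difference of -0.19 between the sexes. M1 was above M2 in 27 of the 39 genes (53.4% of frog-matched symbols). Under either scaling it was above M2 in 23 of them. The share of frog-matched symbols was then 45.1% with median-ratio scaling and 46.9% with scaling to the amphibian-matched total. The median difference between M1 and M2 was 0.13, or 0.08 with median-ratio scaling. By the symbol rule that median was 0.04 and turned to -0.02 with median-ratio scaling. By the symbol rule 31 genes were tested and 0 were called, with an unadjusted p under 0.05 for 6 genes toward males (6.92% of all features) and 0 toward females. Of these 6 genes, 2 were under 1 FPKM in both female pools and so passed the filter through the males alone. In the frog-matched fit there were 5 toward males (3.63% of those features), 1 of them under 1 FPKM in both female pools. There was 1 toward females (5.4%), *CDT1*, a licensing factor named after its values were seen. *RPA3*, a subunit of the single-strand binding protein, was at 21.1 (F1), 22.9 (F2), 26.3 (M1) and 22.5 FPKM (M2). *RPA1*, its large subunit, was at 22.2 (F1), 24.0 (F2), 20.8 (M1) and 22.0 FPKM (M2). The sexes overlapped in *RPA3*, while in *RPA1* the female pools were just above. *RFC2*, a clamp loader subunit that places PCNA on DNA, was at 13.4 (F1), 12.5 (F2), 15.5 (M1) and 15.2 FPKM (M2). *DNMT1*, which copies DNA methylation at the fork, was at 10.6 (F1), 11.6 (F2), 16.0 (M1) and 17.2 FPKM (M2). Both had the male pools above the female pools, *DNMT1* with a difference of -0.56 (SE 0.14, limma, Benjamini-Hochberg adjusted p = 0.299). *RRM2*, the S phase subunit of ribonucleotide reductase and named after its values were seen, followed *TOP2A*, with 0.291 (F1), 0.728 (F2), 4.88 (M1) and 0.718 FPKM (M2).

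Of the G1 cyclins, kinases and inhibitors, 20 genes were tested by the symbol rule, 0 were called and 0 had an unadjusted p under 0.05 (11.0% of all features), with a median difference of 0.01. Of its 25 genes above 0, the males were above the females in 8 (26.5% of all symbols) and the females above the males in 2 (20.7%). From frog-matched unigenes these numbers were 5 (17.2%) and 2 (24.3%). The most abundant was *BTG1*, an antiproliferative gene, at 122 (F1), 193 (F2), 157 (M1) and 114 FPKM (M2). *GADD45G*, a growth arrest gene, was at 22.4 (F1), 70.8 (F2), 26.7 (M1) and 17.9 FPKM (M2). *MYC*, a transcription factor of growth, was at 12.1 (F1), 67.6 (F2), 17.5 (M1) and 10.1 FPKM (M2). F2 was the highest pool for all 3 genes.

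The newborn neuron genes did not follow *DCX* as a group. By the symbol rule 21 were tested and 0 were called, and the median difference was 0.05. From frog-matched unigenes 18 genes were above 0, with the females above the males in 2 (24.3% of frog-matched symbols) and the males above the females in 3 (17.2%). *STMN1*, a microtubule destabilizer of growing neurons, was at 307 (F1), 330 (F2), 383 (M1) and 365 FPKM (M2). *GAP43*, a growth cone protein, was at 256 (F1), 237 (F2), 250 (M1) and 282 FPKM (M2). *STMN2*, a relative of *STMN1* in growing axons, was at 141 (F1), 133 (F2), 158 (M1) and 174 FPKM (M2). *STMN1* and *STMN2* were thus higher in both male pools, the reverse of *DCX*. *NEUROD6*, a transcription factor of excitatory neurons, was at 119 (F1), 82.2 (F2), 50.04 (M1) and 109 FPKM (M2), with the sexes overlapping. An unadjusted p under 0.05 was found for 2 of the 21 genes, both toward females (4.06% of all features) and named after their values were seen. *EOMES*, a transcription factor of intermediate neuronal progenitors in mammals, was at 20.7 (F1), 8.88 (F2), 5.01 (M1) and 5.97 FPKM (M2). *IGFBPL1*, a gene of young neurons in mammals, was at 15.7 (F1), 15.3 (F2), 7.89 (M1) and 9.25 FPKM (M2). In both genes each female pool was above each male pool, and for *EOMES* F1 stood apart as it did for *DCX*.

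Of the microtubule partners of doublecortin, 12 genes were tested, 0 were called, 1 had an unadjusted p under 0.05 (*MAPT*, toward males, as in 6.92% of all features), and the median difference was -0.02. *DCLK1*, the doublecortin-like kinase, was at 94.96 (F1), 65.6 (F2), 58.3 (M1) and 58.0 FPKM (M2). Its order of the sexes and its high F1 value were those of *DCX*, with a difference of 0.44 (SE 0.21, limma, Benjamini-Hochberg adjusted p = 0.538). *MAPT*, which encodes tau, went the other way with 124 (F1), 134 (F2), 155 (M1) and 166 FPKM (M2). *MAP2*, a dendritic microtubule protein, was at 330 (F1), 266 (F2), 284 (M1) and 262 FPKM (M2). *DYNC1H1*, the dynein heavy chain, lay between 99.8 and 105 FPKM in all 4 pools.

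The genes of neural progenitors and radial glia, the cells that divide in the adult amphibian brain, were mostly lower in M1 than in M2. From frog-matched unigenes 14 were above 0. M1 was above M2 in 3 of them (53.4% of frog-matched symbols) and was the highest pool in 1 (21.1%). The median difference between M1 and M2 was -0.21. Against the females, M1 exceeded F1 and F2 in 7 of the 14 genes (30.3% of frog-matched symbols). M1 and M2 each exceeded F1 and F2 in 6 genes (17.2%), and the reverse held in 2 (24.3%). With median-ratio scaling the 7 became 5 (25.0%) and the 6 became 4 (14.5%). The median female minus male difference was -0.15. *ID4*, an inhibitor of neural differentiation, ranged from 284 FPKM in M1 to 315 in F2. *FABP7*, the fatty acid binding protein of radial glia, was at 217 (F1), 224 (F2), 225 (M1) and 266 FPKM (M2). *SLC1A3*, the glial glutamate transporter, was at 240 (F1), 217 (F2), 180 (M1) and 197 FPKM (M2). *ID2*, a relative of *ID4*, was at 90.8 (F1), 110 (F2), 122 (M1) and 170 FPKM (M2). M2 was the highest pool for *FABP7* and *ID2*, and both female pools were highest for *SLC1A3*. By the symbol rule 15 genes of this list were tested and 0 were called. Of 13 genes in the frog-matched fit, 0 were called. An unadjusted p under 0.05 (limma) was found there for 2 genes toward males (3.63% of those features) and 1 toward females (5.4%). Of the genes of oligodendrocyte precursors, another dividing cell of the brain, 5 of 9 were higher in M1 than in M2 from frog-matched unigenes (53.4% of frog-matched symbols). By the symbol rule 4 of 10 were (46.4% of all symbols). Both counts were near the shares over all symbols.

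Markers of other cell types, in the brain or outside it, differed between pools of 1 sex. Several of the lists, though not all, were higher in M1 than in M2, as the mitosis genes were. For comparison, M1 was above M2 in 53.4% of frog-matched symbols and in 46.4% of all symbols. Unless the symbol rule is named, values here are sums over frog-matched unigenes. The skin keratinocyte list (7 genes, all higher in M1 than in M2) was at 40.5 (F1), 250 (F2), 387 (M1) and 79.6 FPKM (M2). Its keratin *KRT12* was listed at 0 in F1, with 1.90 (F2), 120 (M1) and 0.627 FPKM (M2) in the others. The immune list (M1 above M2 in 12 of 13 genes) was at 66.1 (F1), 93.7 (F2), 108 (M1) and 73.6 FPKM (M2). The endothelium and pericyte list (12 of 12) was at 34.5 (F1), 52.6 (F2), 48.6 (M1) and 31.1 FPKM (M2). The red blood cell list (6 of 6) was at 33.1 (F1), 113 (F2), 87.5 (M1) and 31.6 FPKM (M2). By the symbol rule this list (6 of 9) was at 292 (F1), 246 (F2), 88.7 (M1) and 33.8 FPKM (M2), with F1 highest. The meninges and fibroblast list (11 of 11) was at 292 (F1), 392 (F2), 293 (M1) and 260 FPKM (M2). The ependyma and motile cilia list (3 of 12) was at 28.6 (F1), 34.7 (F2), 27.7 (M1) and 30.4 FPKM (M2). Pituitary genes ranged from 84.7 FPKM in F1 to 6683 in F2, and skeletal muscle genes from 3.56 FPKM in F1 to 441 in F2. M1 was above M2 in only 1 of 7 pituitary genes and 1 of 9 muscle genes, the reverse of the mitosis genes. F1, the pool with the highest *DCX*, had the lowest sums of the skin, immune, pituitary and muscle lists. By the symbol rule the immune list was lowest in M2 instead, at 87.9 FPKM against 90.8 in F1. The part of these cell types in the levels of the members was not tested.

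**Figure D4:**
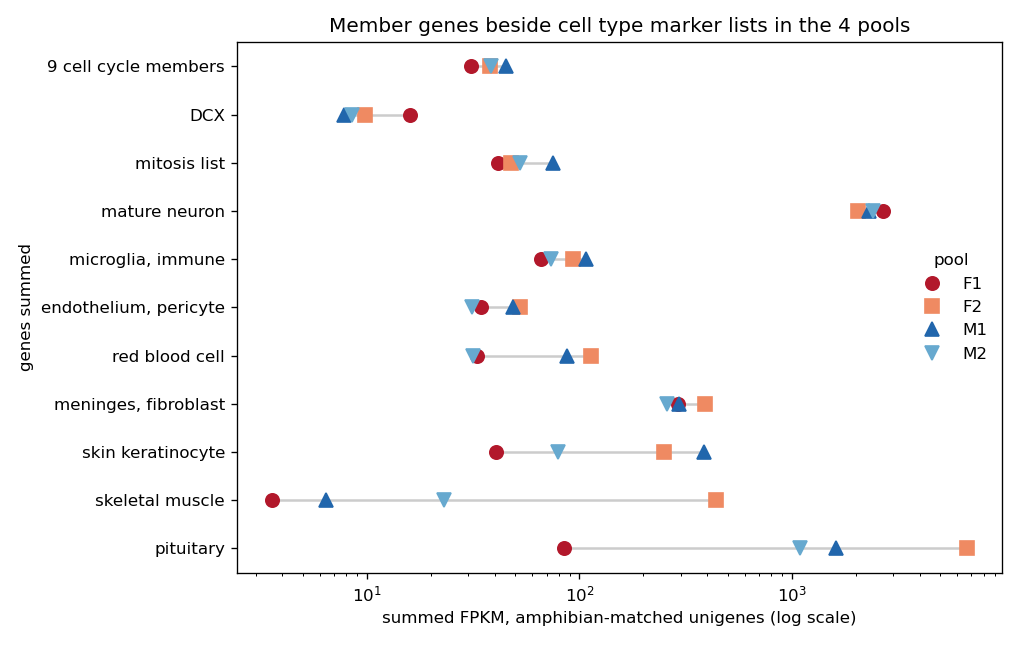
Summed FPKM from frog-matched unigenes (horizontal axis, log scale) of the 9 cell cycle members, *DCX*, the mitosis list and 8 marker lists (vertical axis), with 1 symbol per pool. M1 was the highest pool of the mitosis list (74.9 FPKM) and of the skin list (387 FPKM), while F1 was highest for *DCX* (16.0 FPKM) and for mature neurons (2672 FPKM).

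For 7410 symbols whose mean reached 5 FPKM, the likeness to a pattern was measured as the root mean square difference of centred log2 values over the 4 pools. Nearest to *DCX* was *ERV3-1* with 0.02, at 112 (F1), 66.8 (F2), 55.2 (M1) and 60.2 FPKM (M2). *GABRB4* (0.03) came next, and 32 symbols lay within 0.1. For the cell cycle genes the sum of the symbol rule was used, which includes the bird- and fish-matched unigenes. Likeness to the frog-matched sum was not measured. Nearest to the sum of the symbol rule was *CMTM5* with 0.02, at 7.74 (F1), 9.40 (F2), 12.2 (M1) and 11.3 FPKM (M2). *SLC16A6*, at 0.03, was also near, and 94 symbols lay within 0.1. All of these values share the same 4 libraries.

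Total FPKM was similar in the 4 pools, from 669260 to 717478, and 84.8% to 88.6% of amphibian-matched unigenes were above 0. Over all unigenes, 136730 (F1), 134587 (F2), 151756 (M1) and 148985 (M2) were above 0, more in both male pools. Unigenes with a *Gallus* or *Meleagris* match were above 0 for 2.75% (F1), 2.84% (F2), 89.1% (M1) and 93.8% (M2). The table analysed here holds no read counts, so no counting interval is given for a single FPKM value. Summing FPKM over several pieces of 1 transcript adds levels per length, so sums overstate the level of genes assembled in pieces. Sums over several unigenes are thus not closely comparable between genes. Between pools, sums of the symbol rule also differed in make-up. Of their 10 bird- or fish-matched unigenes, 9 were listed at 0 in both female pools.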

How the data were processed

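The paper describes filtering of reads with NGS QC Toolkit, assembly of all libraries with Trinity, removal of redundancy with TGICL, alignment of each library with Bowtie2 and abundance as FPKM. The submitters' processing notes list other tools (edgeR, Salmon, FastQC and cutadapt) with no version. The authors deposited FPKM per unigene with lengths and NR and Swiss-Prot matches, and these FPKM values were used as deposited. They were not whole multiples of a read, so reads were not recovered and DEGseq, the paper's test, was not run.

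FPKM was summed per Swiss-Prot symbol after *Gallus* and *Meleagris* matches were dropped, and unigenes without a symbol stayed single. Features with at least 1 FPKM in at least 2 pools were fitted in R 4.3.3 by lmFit and trended eBayes of limma 3.58.1, on log2(FPKM + 0.5) with sex as the only term, and p was adjusted by Benjamini-Hochberg over all features, with a threshold of 0.05. Since pooled frogs are the samples, p-values set the sex difference against the spread between pools, not between frogs. eBayes drew that spread toward a trend over all features, with 2.21 prior degrees of freedom beside 2 residual ones in the main fit. Pools of 4 and of 2 frogs were given the same weight. A log2 difference with 0.5 added understates changes of low genes. The script was tested on simulated data. Sums were made with pandas 2.3.3 and numpy 2.4.6 in Python 3.11.15, and plots with matplotlib 3.10.9.

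The members and lists were chosen with earlier results of these data known. Named were all members, up to 4 genes per list with the highest mean FPKM, and the 3 symbols nearest to *DCX* and to the cell cycle sum of the symbol rule. A few genes that this rule names are not reported here. Other marker lists are given as counts or sums. Alternatives were the number added, scaling, filters, the replicate block, leaving out each pool, species filters and symbol rules.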

Additional observations from a re-analysis of the deposited data

How the results depend on the processing

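No feature and no member was called under any alternative run, and *CDK1*, *MCM5*, *TOP2A*, *MKI67*, *PCNA* and *DCX* kept their direction in all of theirs, each of which changed 1 choice of the symbol rule. *CDK1* ranged from -2.13 to -0.44 and its lowest adjusted p in limma was 0.0642, with symbols only. *MCM2* turned to 0.48 without F1, against -0.91 without F2. When frog matches and a left-out pool were combined, *MCM2* turned to 0.68 without F1 and to 0.11 without M1, and *CDK1* (0.09), *CCNB1* (0.09) and *TOP2A* (0.43) turned without M1. The cell cycle difference of -0.48 moved to -0.23 with 1 unigene per symbol, to -0.23 with amphibian matches only, to -0.23 with bird and plant matches dropped and to -0.28 with the *Xenopus* names added to the amphibian matches. Without each pool it ranged from -0.61 to -0.34, and the *DCX* difference from 0.25 to 0.93. Features with both female pools above numbered 9134 and those with both male pools above 11081. These counts became 25697 and 36040 without a filter, 3804 and 3899 with a mean of at least 5 FPKM, 2822 and 2505 for symbols only, 2927 and 1959 for amphibian matches only, and 2927 and 1961 with the *Xenopus* names added. Without each pool they ranged from 13740 to 15809 and from 13885 to 17456, where fewer pools have to be passed. Deviations of equally numbered pools correlated at -0.108 over all features and at -0.262 over amphibian-matched ones. Neither value showed equally numbered pools to be alike. Whether pools shared a batch was not tested. With the replicate block 0 features were called and *DCX* had an adjusted p of 0.658 in limma, and with the pools paired the other way 0 were called. The alternatives with *Xenopus* names on amphibian matches, with frog matches and a left-out pool, with the crossed pairing and on the mitosis list were added after seeing the data. With 2 pools per sex, differences near 0.5 on the log2 scale were not called, and neither were larger ones such as the -1.68 of *CDK1*. The smallest adjusted p over all features of the main limma fit was 0.158.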
